A study of Arabidopsis thaliana with 6 samples.

Results

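STZ, WRKY53, ORA47 and BIK1 are 4 regulators of the early response of Arabidopsis thaliana to elicitors and wounding, here 4 of the 13356 genes that the array's annotation names singly. They were taken from a list of elicitor and wound responsive genes because an earlier analysis of these same arrays had found them higher in the mutant. Their difference between genotypes is therefore what chose them, and it is given as a description with no test. Each gene had 1 probe set, the array's unit of measurement, made of several short probes to the same transcript.

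The study compared whole seedlings of cdkf;1-2, a T-DNA insertion mutant in the Col-0 accession, with wild type Col-0 seedlings, 3 samples of each genotype that the labels call biological replicates. CDKF;1 is a plant kinase that switches on other cyclin-dependent kinases, and the study names the Ser-7 position of the tail of RNA polymerase II as its substrate. Both genotypes grew for 7 days, counted once from germination and once from sowing in the labels, at 22 °C on solid medium in days of 8 h light and 16 h dark, and both were collected 4 h into the light period. The labels give neither the number of seedlings pooled in a sample nor whether samples were grown together, so the spread between samples may be partly technical, and the transcript of CDKF;1 was not analysed here.

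When a plant cell detects a microbial molecule, receptor kinases at its surface hand the signal to cytoplasmic kinases such as BIK1. A burst of calcium and of reactive oxygen, MAP kinase activation and a wave of early transcription follow. WRKY, zinc finger and AP2/ERF transcription factors lead that wave, and many of the same genes respond within minutes to wounding, touch or cold. Jasmonate, the wound hormone, is made and sensed downstream. In whole seedlings a higher transcript level can come from more RNA per cell or from a larger share of the cells that express the gene, and these cannot be told apart.

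STZ, also called ZAT10, encodes a C2H2 zinc finger repressor that is induced by salt, cold, wounding and oxidative stress. Its normalized signal was 101, 121 and 138 in cdkf;1-2 replicates 1 to 3 and 47.6, 44.3 and 41.4 in wild type replicates 1 to 3. The lowest mutant sample was 2.11 times the highest wild type sample, and the groups did not overlap. The mean was 119.7 ± 18.7 in the mutant and 44.5 ± 3.11 in wild type (SD, n = 3 each). STZ was the most variable of the 4 genes within the mutant, where its highest sample was 1.37 times its lowest, against 1.15 times in wild type. The log2 difference, mutant minus wild type, was 1.16 (SE 0.14, n = 3 per group) on the log2(signal + 16) scale, a 2.23-fold difference. The added constant of 16 shrinks the fold of dim transcripts, and without it the ratio of geometric means was 2.67.

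WRKY53 encodes a transcription factor of the WRKY family, which binds W-box promoter elements, and it acts in the onset of leaf senescence and in basal defence. Its signal was 50.5, 48.6 and 52.7 in the 3 mutant samples and 21.1, 23.2 and 15.2 in the 3 wild type samples. The mutant samples lay close together, with the highest 1.08 times the lowest, whereas wild type replicate 3 was the lowest of all and the wild type range was 1.52-fold. The groups were 2.1 times apart at their nearest samples. The mean was 50.6 ± 2.05 in the mutant and 19.9 ± 4.13 in wild type (SD, n = 3 each). The log2 difference was 0.90 (SE 0.13), a 1.87-fold difference, and the ratio without the added constant was 2.59. On linear signals WRKY53 and STZ thus had similar ratios, 2.59 and 2.67, although WRKY53 had the smaller log2(signal + 16) difference.

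ORA47 encodes an AP2/ERF transcription factor that responds quickly to wounding and jasmonate and activates genes of jasmonate synthesis. Its signal was 69.9, 61.8 and 55.4 in mutant replicates 1 to 3 and 32.5, 28.7 and 25.1 in wild type replicates 1 to 3. After normalization replicate 1 was the highest and replicate 3 the lowest of both genotypes, and the lowest mutant sample was 1.71 times the highest wild type sample. The mean was 62.4 ± 7.24 in the mutant and 28.8 ± 3.72 in wild type (SD, n = 3 each). The log2 difference was 0.81 (SE 0.13), a 1.75-fold difference, and the ratio without the constant was 2.17. After normalization the mutant replicate with the highest STZ had the lowest ORA47, but in the signals as deposited it had the highest of both.

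BIK1 encodes a receptor-like cytoplasmic kinase that is phosphorylated when the flagellin receptor is engaged and in turn phosphorylates the oxidase that makes the oxidative burst. It was the only kinase of the 4 and had the smallest difference as reported, though not with a pseudocount of 64. Its signal was 416, 378 and 382 in the mutant samples and 270, 249.5 and 280 in the wild type samples. The groups did not overlap, with the lowest mutant sample 1.35 times the highest wild type sample. The mean was 392.3 ± 20.8 in the mutant and 267 ± 15.8 in wild type (SD, n = 3 each). The log2 difference was 0.53 (SE 0.12), a 1.44-fold difference, and the ratio without the constant was 1.47.

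**Figure D1:**
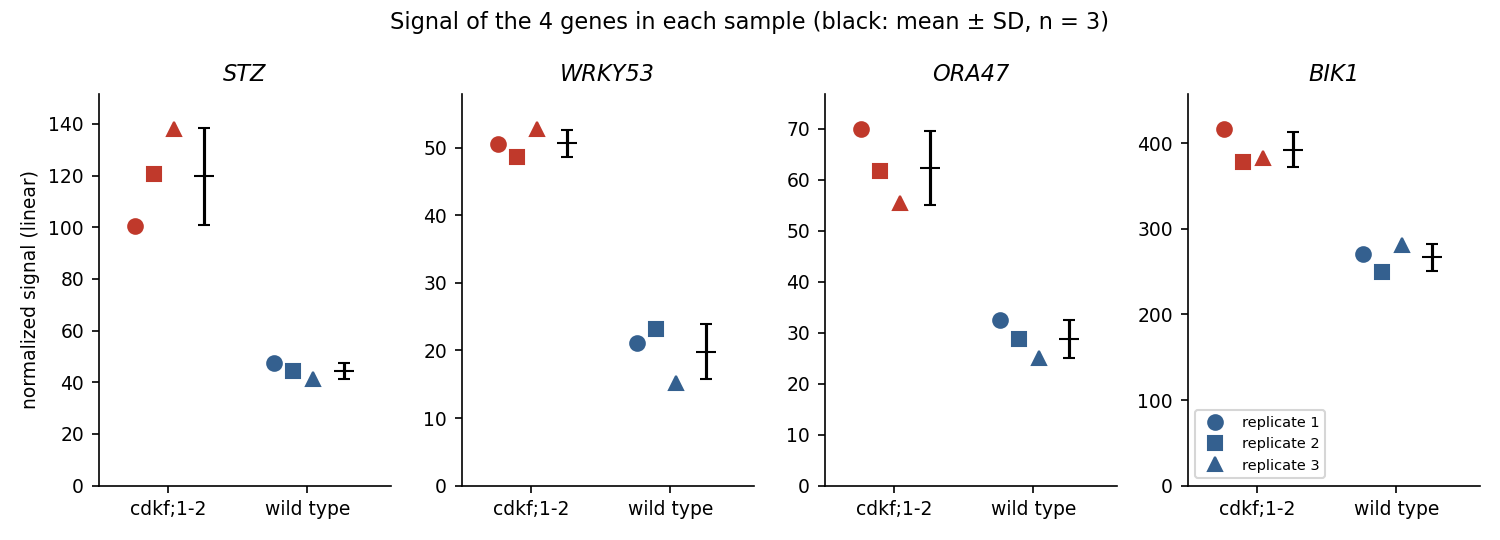
Quantile-normalized signal (linear scale, from 0) of STZ, WRKY53, ORA47 and BIK1 in 3 cdkf;1-2 samples (red) and 3 wild type samples (blue), with the mean ± SD of each group in black and the replicate number as the symbol. In each panel all 3 mutant samples lie above all 3 wild type samples, and the nearest samples of the groups are 2.11, 2.1, 1.71 and 1.35 times apart.

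These differences stand against a wide background. Of 22746 probe sets, 33.9% had groups that did not overlap, 15.8% with the mutant higher and 18.1% with it lower, and limma called 6.94% higher and 7.42% lower in the mutant at an adjusted p of 0.05, 14.4% in all. Non-overlap of the 4 genes, which were chosen for being higher, is not read against that share. A larger rise than that of STZ was seen for 1.798% of probe sets, than that of WRKY53 for 3.48%, than that of ORA47 for 4.42% and than that of BIK1 for 9.79%. The split of the calls depended on the scaling of the arrays: 1579 were higher and 1688 lower after quantile normalization, 1472 higher and 1033 lower after centring on the array median, and 1754 higher and 427 lower after scaling on the hybridisation spikes. The pooled SD within groups was 0.15 for STZ, 0.12 for WRKY53, 0.13 for ORA47 and 0.08 for BIK1 on the log2 scale. The median over the 1000 probe sets nearest in signal to each was 0.20, 0.25, 0.24 and 0.18. A gene chosen for a clear difference between groups tends to have a small spread within them, so nothing is read from these values.

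BIK1 was the one gene of the 4 whose groups overlapped in the signals as deposited. Its deposited signal was 270, 386 and 520.5 in the mutant and 264, 282 and 253 in wild type, and mutant replicate 1 lay below wild type replicate 2. That array had the lowest median signal, 64.1, against 89.1 and 114 in the other mutant arrays and 93.8, 104 and 85.0 in the wild type arrays. The deposited signals of STZ were 69.9, 116 and 174 in the mutant and 48.6, 48.4 and 39.2 in wild type. Those of WRKY53 were 37.5, 47.7 and 64.2 in the mutant and 21.5, 24.6 and 14.6 in wild type, and those of ORA47 were 49.9, 60.5 and 67.3 in the mutant and 33.5, 30.6 and 24.1 in wild type. As deposited, all 4 genes were lowest in mutant replicate 1 and highest in mutant replicate 3, the order of the array medians, so the order of the mutant samples within a gene depends on the scaling. For STZ, WRKY53 and ORA47 the lowest mutant sample still stood 1.44, 1.53 and 1.49 times above the highest wild type sample. Under quantile normalization, median, trimmed mean and spike scaling the groups of all 4 genes were apart. Scaling on the spikes raised the log2 differences to 1.34, 1.07, 0.96 and 0.80, where the median of all probe sets moved to 0.17, and relative to that shift they were 1.17, 0.89, 0.79 and 0.62.

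**Figure D2:**
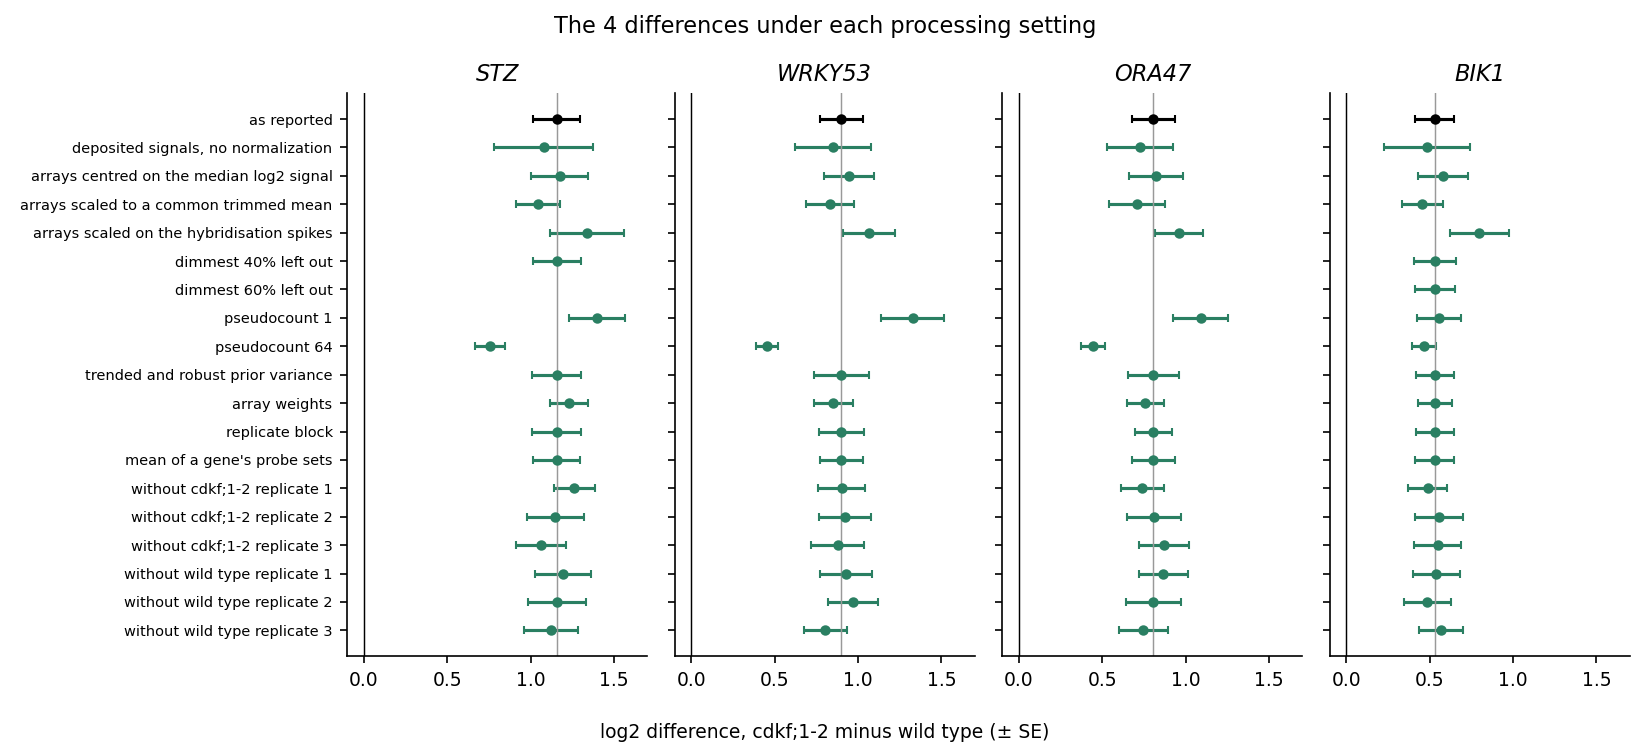
Log2 difference of STZ, WRKY53, ORA47 and BIK1 (cdkf;1-2 minus wild type, ± limma SE) as reported (black) and under each other setting (green), with a grey line at the reported value and a black line at 0. All plotted values lie above 0, and for STZ, WRKY53 and ORA47 the pseudocounts of 1 and 64 move them furthest. For BIK1 the spike scaling (0.80) and the trimmed mean (0.45) do so. WRKY53 and ORA47 are absent where the dimmest 40% of probe sets were left out, and STZ too at 60%.

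Several signs of RNA and array quality moved with genotype in the same samples. The 25S ribosomal RNA control was 85.9 to 109 times the array median in the mutant and 44.9 to 53.7 times in wild type. The bacterial poly(A) controls were 3.24 to 4.07 times the array median in the mutant and 2.00 to 2.15 times in wild type. The ratio of 3' to 5' signal was 2.81 ± 0.148 in the mutant and 2.29 ± 0.22 in wild type for actin, 1.04 ± 0.038 and 0.914 ± 0.040 in the same order for GAPDH, and 1.43 ± 0.081 and 1.66 ± 0.073 for ubiquitin (SD, n = 3 each). Of 7 green tissue markers 4 were measured, with summed signals of 26110 to 27280 in the mutant and 33500 to 33980 in wild type. PRK and PSAN fell (limma adjusted p = 0.00942 and 0.0179). RCA and LHCB4.1, both brighter, had overlapping groups and did not pass (limma adjusted p = 0.453 and 0.522). Of 5 root markers 3 were measured, with a summed signal of 8540 to 9650 in the mutant and 7213 to 8240 in wild type that was nearly all PYK10, a root glucosidase gene (log2 0.24, SE 0.12, limma adjusted p = 0.249). Of 2 expansin genes of root hairs, EXPA18 fell (log2 -0.73, SE 0.17, limma adjusted p = 0.0280). EXPA7 had 4.41, 39.8 and 53.7 in the mutant and 101.3, 100.8 and 94.1 in wild type without passing (log2 -1.42, SE 0.41, limma adjusted p = 0.0620). Transcripts of both green tissue and root were thus present in these whole seedlings. No seed reserve marker had a named probe set. The part of any of these in the differences of the 4 genes was not tested.

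The relatives of the 4 genes were followed next, in lists of the families and pathways they belong to. The lists named 166 genes, and 41 besides the 4 had a probe set under the listed name. In this report a listed gene is called measured only if it had one. The annotation left 8730 probe sets unlisted, and listed genes such as FLS2, FRK1, JAZ1 and LOX2 had no named one. The counts do not cover such genes. Of these 41, limma called 3 higher and 3 lower (with unadjusted p values under 0.05, 4 were higher and 5 lower), shares close to the 6.94% and 7.42% of all probe sets. Their median log2 difference was 0.01, against -0.01 over all probe sets. That median is the value of EFR, a receptor gene described below whose signal was too dim to compare. Several other list genes were about as dim, and the added constant shrinks the differences of such genes. The median therefore does not show that the listed genes were unchanged. The calmodulin-like, glutamate receptor and U-box families, and JMT, JRG21 and SAG29 in the jasmonate and senescence lists, were added once the annotation's coverage was known. Over the 17 genes of the lists as first written, 0 were called higher and 1 lower by limma, and without adjustment 1 was higher and 1 lower.

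Of the other 5 measured WRKY genes limma called 0, and at an unadjusted threshold 1 was higher and 0 lower. Their median log2 difference was 0.02. WRKY20 had signals of 242, 207 and 203 in the mutant and 234, 210 and 199 in wild type (log2 0.02, SE 0.13). WRKY47 had a log2 difference of 0.17 (SE 0.14). WRKY22, which acts downstream of flagellin perception, had 67.5, 74.4 and 59.4 in the mutant and 58.4, 64.8 and 78.4 in wild type (log2 0.00, SE 0.14), with the groups mixed. WRKY6, a regulator in senescence, had 102, 69.6 and 95.6 in the mutant and 59.0, 68.8 and 50.04 in wild type. Its groups just failed to overlap, and it did not pass (log2 0.48, SE 0.17, limma adjusted p = 0.107). WRKY22 and WRKY6 are named after their values were seen. WRKY42, the last of the 5, had signals of at most 14.3 in every sample. Whether WRKY53 differed from its relatives was not tested.

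Of the 23 genes in the AP2/ERF list, the only other one followed was TINY2, of the DREB branch. The rest of the family was not searched. Its signal was 41.5, 39.7 and 45.3 in the mutant and 40.6, 43.6 and 36.5 in wild type, and it did not pass (log2 0.05, SE 0.12, limma adjusted p = 0.838). STZ was the only gene of 11 in its zinc finger list that was followed. ZAT5, ZAT8 and ZAT18 were left out, with or without a probe set, because the RefSeq table does not carry those names. The other listed genes had no named probe set.

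Few partners of BIK1 had a named probe set. EFR, the receptor for bacterial elongation factor Tu, gave signals of 1.39 to 5.18 over all 6 samples, too dim to compare (log2 0.01, SE 0.13). AT5G18610, the kinase PBL27 of the same receptor-like cytoplasmic class, which acts with the chitin receptor, had 2.24, 2.57 and 2.06 in the mutant and 17.7, 6.94 and 1.36 in wild type (log2 -0.38, SE 0.23, limma adjusted p = 0.331). PUB25 and PUB26 encode plant U-box ubiquitin ligases that mark BIK1 for degradation. PUB26 had 71.7, 100.3 and 85.0 in the mutant and 123, 105 and 116 in wild type. Its mutant samples were all below its wild type samples, without passing (log2 -0.37, SE 0.14, limma adjusted p = 0.136), and it is named after its values were seen. PUB25 had 148, 140 and 124 in the mutant and 134, 112 and 122 in wild type, with overlapping groups (log2 0.14, SE 0.13).

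Of 9 measured U-box ligases limma called 0, and at an unadjusted threshold 0 were higher and 1, PUB26, was lower, with a family median of 0.14 on the log2 scale. PUB49, the brightest of them, had a log2 difference of -0.17 (SE 0.16). PUB22, PUB23 and PUB24, which dampen elicitor responses and are themselves induced early by elicitors, were also the only measured genes of 22 early elicitor markers. PUB22 had 112, 109 and 126 in the mutant and 137, 94.4 and 113 in wild type (log2 0.02, SE 0.15). PUB23 had 64.4, 70.2 and 67.2 in the mutant and 47.6, 53.1 and 60.7 in wild type, with no overlap but no call (log2 0.26, SE 0.12, limma adjusted p = 0.212). PUB24, named as the last of the 3, had a log2 difference of -0.14 (SE 0.15). Early elicitor markers therefore gave 0 calls among 3 genes by limma, also at an unadjusted threshold.

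Calcium sensors gave the calls on the upward side. Of 7 measured calmodulin-like genes 3 were called higher and 0 lower by limma, with the same counts at an unadjusted threshold and a family median of 0.48 on the log2 scale. Over all probe sets limma called 6.94% higher. This family was added to the lists once the annotation's coverage was known, and no set test was run. CML30 rose 2.00-fold, with 153, 321 and 266 in the mutant and 93.7, 126 and 112 in wild type (log2 1.00, SE 0.26, limma adjusted p = 0.0403). Its mutant samples spread more than those of any of the 4 genes. CML43, known as a calcium sensor of defence, rose 1.52-fold, with 97.7, 113 and 112 in the mutant and 62.04, 58.4 and 75.5 in wild type (log2 0.61, SE 0.13, limma adjusted p = 0.0243). CML42, a sensor with a part in defence against insects and in trichome branching, rose 1.39-fold, with 222, 234 and 263 in the mutant and 168, 156 and 178 in wild type (log2 0.48, SE 0.12, limma adjusted p = 0.0412). CML23 (log2 0.51, SE 0.31) and CML41 (log2 0.05, SE 0.21) did not pass, and CML37, a jasmonate-linked sensor of wounding, was at or below 4.64 in every sample. CML37 is named after its values were seen.

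These 3 calls were not firm. Without mutant replicate 2, mutant replicate 3, wild type replicate 1 or wild type replicate 2 none of the 3 passed, with limma adjusted p from 0.0937 to 0.125 for CML30, 0.0802 to 0.0990 for CML43 and 0.101 to 0.146 for CML42. Without wild type replicate 3 CML30 and CML42 also missed it, at adjusted p = 0.103 and 0.0756. On the deposited signals the adjusted p was 0.372, 0.410 and 0.605 for CML30, CML43 and CML42. Over the alternative settings the 3 calls held in 9 of 18, 12 of 17 and 7 of 18, and under spike scaling and with a pseudocount of 1 only that of CML43 held.

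Calls among the glutamate receptor-like channels lay on the other side, though most of the family was not called. Of 8 measured genes 2 fell and 0 rose by limma, and at an unadjusted threshold 3 were lower and 0 higher, with a family median of -0.04 on the log2 scale. Over all probe sets limma called 7.42% lower. This family too was added to the lists once the annotation's coverage was known. GLR2.7, a channel of the clade that carries calcium signals after elicitors, fell to 2.79, 5.78 and 17.6 in the mutant, against 52.2, 55.0 and 44.8 in wild type (log2 -1.47, SE 0.22, limma adjusted p = 0.00575). It was the largest change among the list genes, and since the mutant signals lie near or below the added 16, its size depends on that constant. The log2 difference was between -2.72 and -0.66 over 16 other settings, of which the call was lost in 1, the deposited signals (adjusted p = 0.0532). GLR3.3, which carries wound-induced electrical signals between leaves, had 127, 78.8 and 83.8 in the mutant and 190, 166 and 148 in wild type (log2 -0.73, SE 0.19, limma adjusted p = 0.0408). GLR3.6, its partner in that signal, had overlapping groups and did not pass (log2 -0.02, SE 0.18), nor did GLR1.4 (log2 0.04, SE 0.13). The relatives of GLR2.7, GLR2.8 (log2 -0.04, SE 0.17) and GLR2.9 (log2 -0.03, SE 0.11), did not pass either, and GLR2.9 was at or below 2.93 in every sample. These last 2 are named after their values were seen. The family median lies between their log2 differences, both from dim probe sets. The call of GLR3.3 was lost on leaving out any sample other than mutant replicate 1, with limma adjusted p from 0.0725 to 0.127, on the deposited signals (0.125), under spike scaling (0.0831) and with a pseudocount of 1 (0.0797).

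Jasmonate genes, the pathway into which ORA47 feeds, gave 1 call, and it was lower. MYC3, a bHLH activator of jasmonate responses, had 144, 105 and 100.1 in the mutant and 216, 189 and 188 in wild type (log2 -0.70, SE 0.16, limma adjusted p = 0.0266). Its call was lost on leaving out any sample other than mutant replicate 1 (limma adjusted p from 0.0666 to 0.0919), on the deposited signals (0.112), under spike scaling (0.0682) and with a pseudocount of 1 (0.0574). MYC4, its close relative, had 45.9, 47.6 and 80.1 in the mutant and 102, 103 and 57.9 in wild type, with overlapping groups (log2 -0.48, SE 0.25, limma adjusted p = 0.247). OPCL1, a ligase of jasmonate synthesis, had 44.6, 99.4 and 96.9 in the mutant and 87.2, 82.1 and 113 in wild type (log2 -0.24, SE 0.26). In all, of 7 measured jasmonate genes 0 rose and 1 fell by limma (also 0 and 1 at an unadjusted threshold). The shares of all probe sets were 6.94% higher and 7.42% lower. The median was -0.20 on the log2 scale, which is the value of JMT, a dim gene, and it says little about the pathway. The other 4, with the added JMT and JRG21 among them, had log2 differences between -0.20 and 0.44. All 4 were dim, with signals of at most 26.14 in any sample, so the added constant shrinks their differences.

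Of the salicylate and senescence list, which includes processes WRKY53 is known for, 2 genes were measured and 0 called by limma, also at an unadjusted threshold. SAG101, a partner of the immune regulator EDS1, had 44.3, 69.8 and 48.6 in the mutant and 49.95, 55.5 and 54.5 in wild type (log2 0.00, SE 0.16). SAG29, an added gene for a sugar transporter of late senescence, had a log2 difference of -0.16 (SE 0.19).

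**Figure D3:**
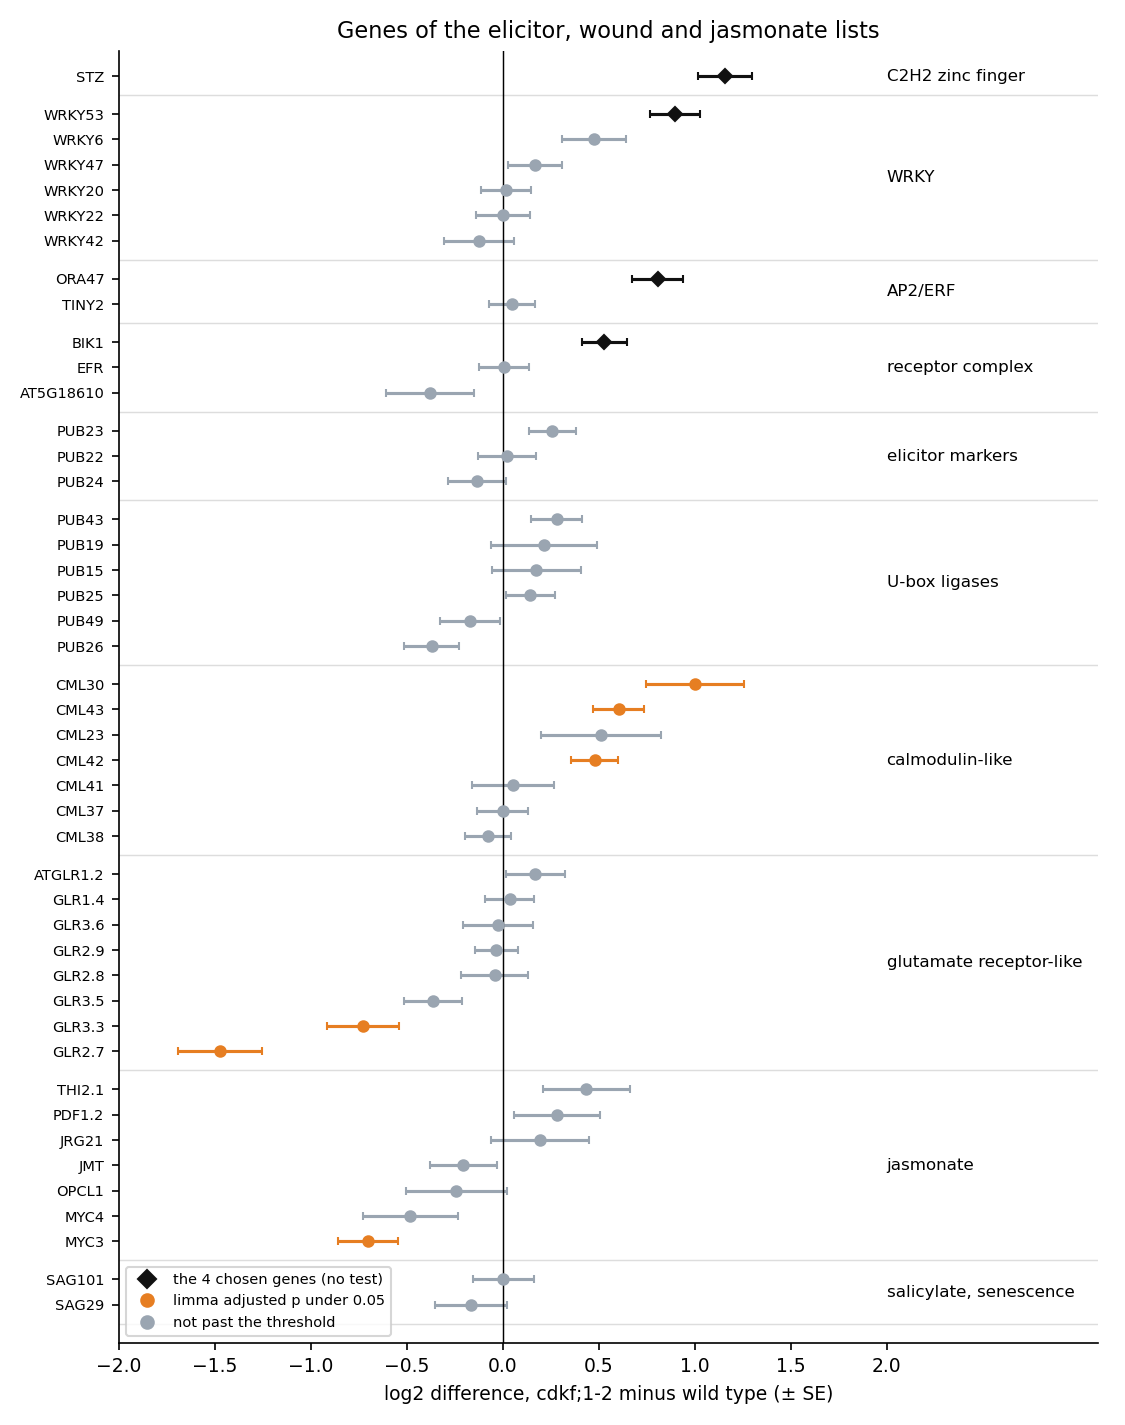
Log2 difference (cdkf;1-2 minus wild type, ± limma SE, n = 3 per group) of the 45 measured genes of the lists, grouped by list, each gene drawn once. Black diamonds are the 4 chosen genes, orange points the 6 genes past the limma threshold and grey points the other 35. The orange points split into 3 calmodulin-like genes above 0 and 2 glutamate receptor-like genes and MYC3 below 0.

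The 4 profiles were also set against the other named genes brighter on average than the median probe set. Likeness was the root mean square difference between log2(signal + 16) profiles over the 6 samples, each centred on its own mean, so that 0 is identity. Since genotype separates the samples, a small value mainly says that the size of the genotype difference is alike. The like genes were picked over these same samples, so a shared order of samples follows in part from the choice. That order also depends on the scaling. Nearest to STZ was AT2G43590 at 0.07, with 886, 1048 and 1120 in the mutant and 494, 441 and 381 in wild type. Then came AT5G19240 and AT4G21620, both at 0.09. Like STZ, all 3 were highest in mutant replicate 3 and lowest among the mutants in replicate 1. The median distance of the 5941 candidates from STZ was 0.63.

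Nearest to WRKY53 were AT5G03610 and the protein phosphatase gene TOPP7, each at 0.06, and AT1G30700 at 0.08. These 3, like WRKY53, were lowest in wild type replicate 3. Nearest to ORA47 were AT2G46630 at 0.06, AT5G48900 at 0.07 and AT5G44400 at 0.08, which shared its peak in mutant replicate 1 after normalization. Nearest to BIK1 were AT3G18600 at 0.04 and AT3G14220 and OTC, an enzyme gene of arginine synthesis, at 0.05. Among the 4 themselves WRKY53 and ORA47 were closest, at 0.12, and STZ and BIK1 farthest, at 0.36.

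**Figure D4:**
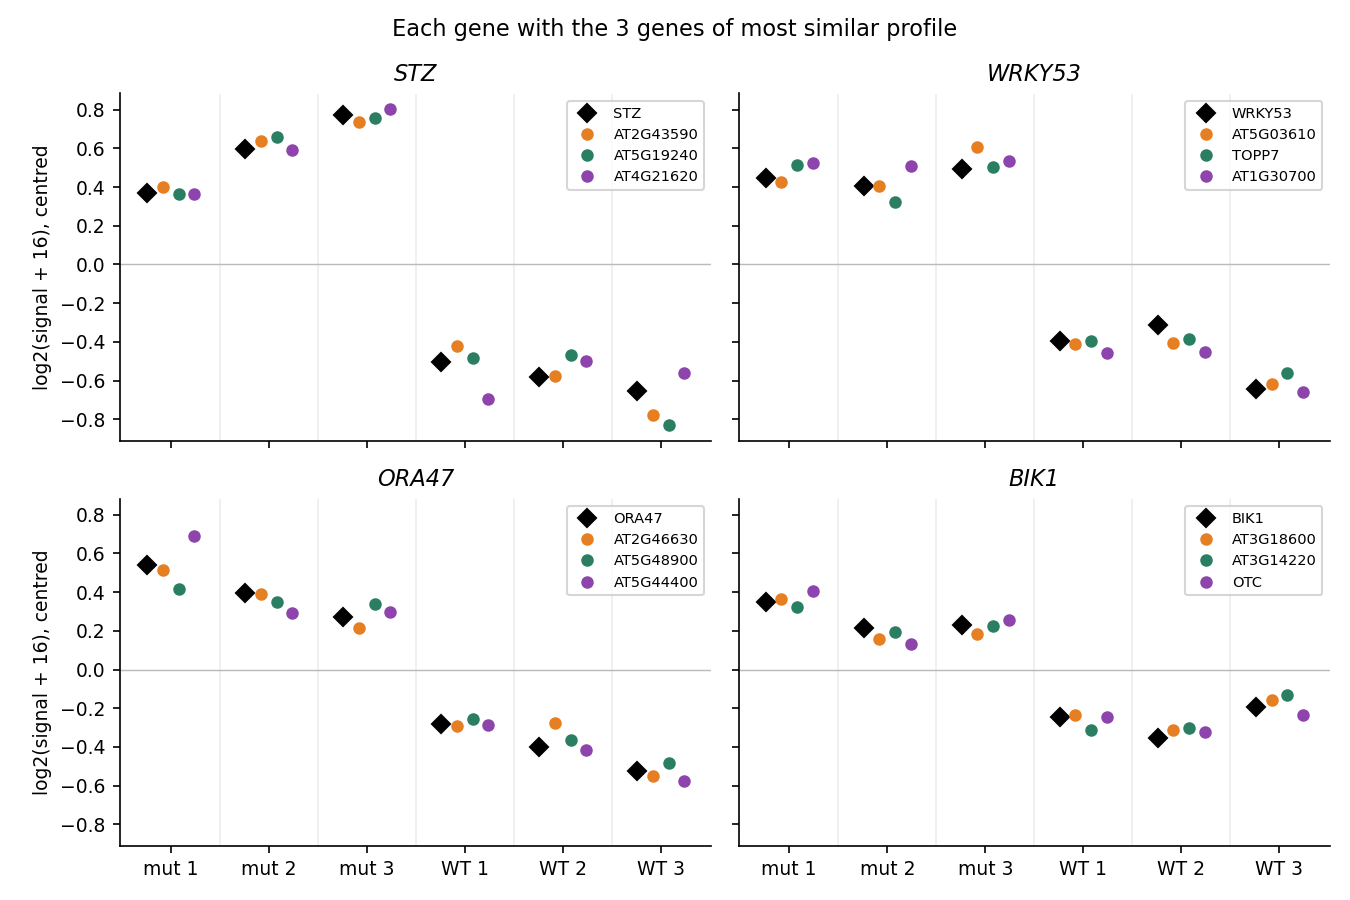
Log2(signal + 16) in each of 3 cdkf;1-2 samples (mut) and 3 wild type samples (WT), centred on each gene's mean over the 6 samples, for each of the 4 genes (black diamonds) and the 3 named genes of most similar profile (colours). The step between genotypes is of like size for the genes within a panel. After normalization the black diamonds show STZ highest in mutant replicate 3 and ORA47 highest in mutant replicate 1.

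Genes beside the 4 on the chromosome were measured for WRKY53, ORA47 and BIK1. In the gene order of the RefSeq table (TAIR10.1), the 2 protein-coding genes on either side of each were looked up, 16 in all, of which 10 had a named probe set and none of these lay beside STZ. Limma called 0 of the 10 higher and 1 lower, where the shares of all probe sets were 6.94% and 7.42%. At an unadjusted threshold 0 were higher and 2 lower. With 10 genes, 1 call is close to that share. The gene called was 3xHMG-box2, a chromatin protein gene of dividing cells, whose annotated span overlaps that of WRKY53 by 341 bases. It fell to 137, 93.5 and 87.1 in the mutant, against 190, 216 and 235 in wild type (log2 -0.93, SE 0.18, limma adjusted p = 0.0149), opposite to WRKY53. The span of ORA47 holds a short gene, AT1G74929, of 102 bases, with no probe set named here. Whether the transcript of AT1G74929 adds to the signal of ORA47 was not tested. The spans of STZ and BIK1 overlap no other gene of the table.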

How the data were processed

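Each array's values are linear signal intensities as deposited, made by the authors with GCOS, per the submitters' processing notes, whose settings the sources used here do not give. The 6 arrays shared no common scale, so signals were quantile-normalized, 16 was added and log2 taken. The 64 control probe sets were left out and 22746 probe sets fitted with limma 3.58.1 in R 4.3.3 (genotype as the only term, two-sided, Benjamini-Hochberg over all probe sets, threshold 0.05, no filter on dim probe sets). The fit was tested on simulated data with changes placed only in probe sets above the median signal. By mean signal STZ, WRKY53 and ORA47 lie below that median, so the simulation did not cover genes as dim as these. Precision is limited by having 3 arrays per genotype.

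Of the probe sets 13513 had 1 gene in the array's annotation, 503 had several and 8730 were not listed. The brightest probe set stood for a gene. The 4 genes and all lists were chosen with earlier results of these data known. From each list up to 4 genes past the threshold and the 2 brightest others are named. Of the pathway list entries 115 had no named probe set, and 5 genes with one were left out because the annotation and the RefSeq table do not carry the listed name. The earlier list from which the 4 came was not used here. Alternatives covered array scaling, dim probe sets, pseudocount, prior variance, weights, a replicate block, and each sample left out.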

Additional observations from a re-analysis of the deposited data

How the results depend on the processing

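Over the alternatives that could be run the log2 difference was 0.76 to 1.4 for STZ and 0.45 to 1.33 for WRKY53. It was 0.45 to 1.09 for ORA47 and 0.45 to 0.80 for BIK1. All 4 kept their sign, but most alternatives could not have changed it. Since the genes were chosen as higher and their normalized groups did not overlap, only the array scalings could have reversed a sign. With a pseudocount of 1, STZ, WRKY53 and ORA47 had log2 differences of 1.4, 1.33 and 1.09, and with 64 they had 0.76, 0.45 and 0.45, against 0.46 for BIK1, as the added constant acts most on dim signals. Scaling on the hybridisation spikes gave 1.34, 1.07, 0.96 and 0.80 for STZ, WRKY53, ORA47 and BIK1. Leaving out each sample in turn gave 1.06 to 1.26, 0.80 to 0.97, 0.74 to 0.87 and 0.49 to 0.57 for the same genes. WRKY53 and ORA47 gave no value without the dimmest 40% of probe sets, nor did STZ without the dimmest 60%.

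Limma called 3267 probe sets as reported, 328 on the deposited signals, 2122 with a pseudocount of 1 and 5612 with array weights. It called 1482 to 4122 on leaving out a sample, the most without mutant replicate 1 and the fewest without wild type replicate 2. Of the 41 list genes 6 were called as reported. Limma called 0 of them on the deposited signals (3 at an unadjusted threshold), 2 under spike scaling and 2 with a pseudocount of 1. Without the dimmest 60% only 5 of the 41 were left and 3 were called, which were all of the 6 still tested. It called 1 to 7 on leaving out a sample, and 1 with all genes added to the lists left out, an alternative chosen after seeing the data. The cause of the other changes was not tested.

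Deviations from the group means correlated at 0.30, 0.01 and 0.15 between samples of the same replicate number. Samples of unlike number were not compared, so these values do not decide whether the numbers pair the samples. With the replicate block limma called 3382 probe sets and 5 list genes, and CML42 was not called (adjusted p = 0.0508).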
